A study of Mus musculus with 8 samples.

Results

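Class 3 semaphorins are secreted guidance proteins, and neuropilins and plexins are the receptors that read them. The mRNA levels of 10 genes of this system were examined in libraries of WT and LRP1 eKO mice that are labelled as liver microvascular endothelial cells. The genes were 5 ligands (Sema3a, Sema3c, Sema3d, Sema3e and Sema3f), both neuropilins (Nrp1 and Nrp2) and 3 plexins (Plxna1, Plxna2 and Plxnd1). The genes were chosen by symbol among 22520 protein-coding genes, and each symbol matched 1 row. The series holds 4 WT and 4 LRP1 eKO libraries from C57BL/6 littermates at postnatal day 14. All mice carried the LRP1 f/f allele. WT mice were Cdh5-CreER-/- and LRP1 eKO mice were Cdh5-CreER+/-. The recombinase was thus driven by the promoter of VE-cadherin, an adhesion protein of endothelial junctions, and the controls lacked CreER. The agent that induced CreER and its dose are not given for these mice in the sources used here. The cells were captured with beads that carried an antibody against PECAM-1, a surface protein of endothelial cells (ECs). The labels do not say whether the libraries of a group came from separate mice, so the p-values measure only the spread between these libraries, which may be technical.

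In this system a neuropilin binds the secreted semaphorin and a plexin carries the signal into the cell, where it acts on small GTPases and the cytoskeleton. Sema3e differs from the rest in that it can bind Plexin-D1 without a neuropilin. In blood vessels these proteins guide sprouts and restrain or redirect EC migration, and neuropilins also serve as co-receptors for VEGF ligands.

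The level of each gene is given as the quantile-normalized signal of the deposited table. Whether that signal was scaled to transcript length is not stated, so levels were compared between libraries, and the levels of different genes or marker lists are given without an order. Fold changes are differences of the mean log2(signal + 1), LRP1 eKO minus WT, a scale that understates the change of genes with low signal. A gene was called at a Benjamini-Hochberg adjusted p below 0.05 in limma, over the 11391 genes whose signal reached 1 in 4 or more libraries. Lrp1, the targeted gene (chr10:127538161-127621148, minus strand, GRCm38), had a signal of 61.6, 59.0, 56.2 and 85.1 in WT 1 to 4 and of 6.01, 2.16, 5.15 and 4.32 in LRP1 eKO 1 to 4. Its log2 fold change was -3.66 ± 0.23 (SE, n = 4 per group, adjusted p = 2.80e-06 by limma).

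The labelled cell type was checked against marker genes. Of 10 pan-endothelial markers, Tek and Erg stayed below 1 in all 8 libraries. Pecam1 had a signal of 1.53 to 2.50 in WT and 1.84 to 3.85 in LRP1 eKO, and Cdh5, the gene of VE-cadherin, 1.26 to 2.27 and 2.21 to 4.99. Eng, which encodes a co-receptor of TGF-beta ligands, had a signal of 11.0 to 13.8 and 19.8 to 27.5, Esam 13.9 to 16.3 and 16.7 to 19.1, and Egfl7 7.72 to 11.6 and 6.65 to 12.2. Cldn5, which did not pass the filter on low signal, went the other way without overlap, at 0.968 to 1.19 in WT and 0.568 to 0.826 in LRP1 eKO. Msln, which encodes a mesothelial surface protein, had a signal of 837 to 1111 in WT and 1245 to 1370 in LRP1 eKO. The summed signal of the 10 pan-endothelial markers was 46.8 to 48.2 in WT and 53.4 to 78.6 in LRP1 eKO, with 3 of 7 tested markers higher. That of 8 liver sinusoidal markers was 7.84 to 11.7 and 8.38 to 33.0. A sinusoidal marker that passed the filter on low signal through its LRP1 eKO libraries alone, Oit3, was left out of the count, and 0 of the other 3 were called by limma (2 at an unadjusted p below 0.05). The sum over 6 mesothelial markers was 2240 to 2690 and 2910 to 3220, with 2 of 6 higher, and over 5 smooth muscle markers 1490 to 1560 and 1840 to 1920, with 3 of 4 higher (Myh11, which passed the filter through LRP1 eKO alone, is not counted). Stellate and fibroblast markers summed to 2030 to 2340 and 1770 to 2240, with 3 of 8 lower and with Lrat and Reln below 1. Hepatocyte markers summed to 91.8 to 138 and 33.2 to 44.3, with 5 of 5 lower. Macrophage markers summed to 113 to 222 in WT and 52.8 to 734 in LRP1 eKO, with 1 of 9 higher and with Clec4f and Timd4 below 1. Cholangiocyte markers had 1 of 3 lower, skeletal muscle markers 2 of 2 lower, erythroid markers 1 of 1 lower, and 0 lymphocyte markers passed the filter on low signal. Over all genes tested, 19.0% were called higher and 22.2% lower in LRP1 eKO. Several of these lists differed between the genotypes, and their part in the results on the 10 genes was not tested. Mesothelial, smooth muscle, fibroblast, macrophage and hepatocyte markers were detected in every library, so these markers do not bear out the label as ECs alone. In a bulk library, fewer cells of a type and less RNA per cell cannot be told apart.

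**Figure D1:**
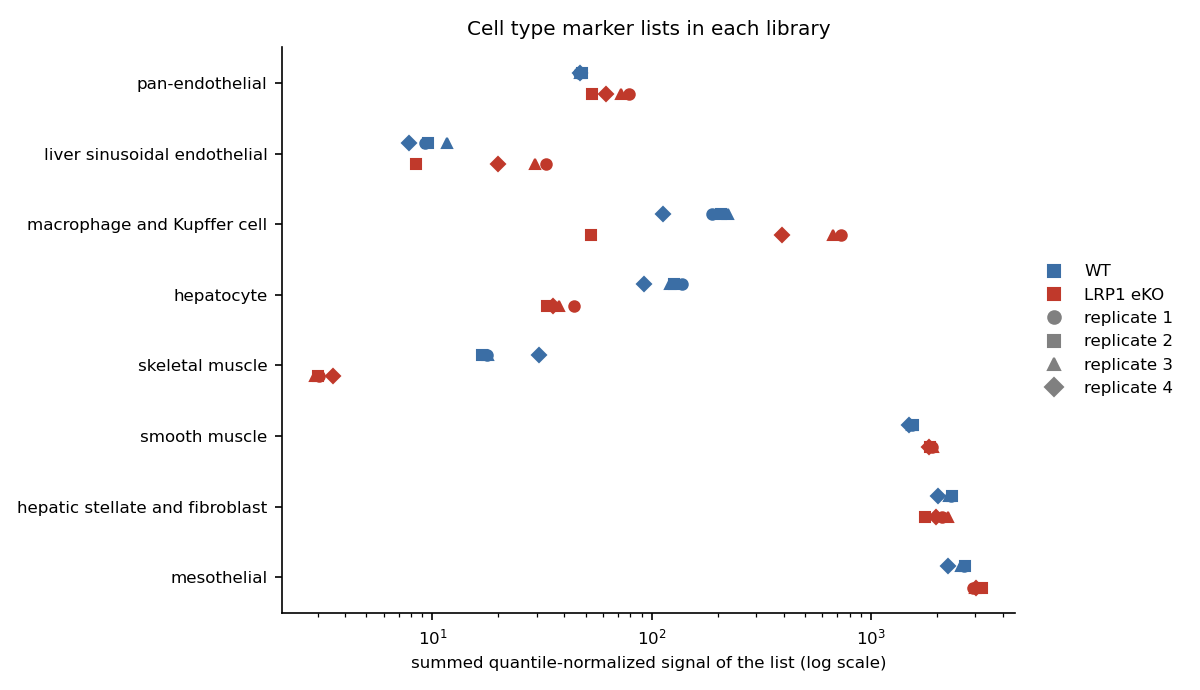
Summed quantile-normalized signal of cell type marker lists (log axis) in the 4 WT and the 4 LRP1 eKO libraries, 1 point per library. The cholangiocyte, lymphocyte and erythroid lists are not drawn. The hepatocyte sums do not overlap between the groups (91.8 to 138 in WT, 33.2 to 44.3 in LRP1 eKO), nor do the skeletal muscle sums (16.9 to 30.5 and 2.92 to 3.5). The pan-endothelial, mesothelial and smooth muscle sums do not overlap either, and are higher in LRP1 eKO. The macrophage sums of LRP1 eKO spread from 52.8 to 734.

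A library in each group stood apart. WT replicate 4 was the farthest from the WT median for 61.7% of the genes tested, against 10.5% to 14.4% for the other WT libraries. It was the lowest WT library for all 10 genes of the system, and for 38.6% of all genes tested. Its marker sums were the lowest of the WT libraries for mesothelial (2240 against 2590 to 2690) and macrophage markers (113 against 189 to 222). They were also the lowest for smooth muscle, stellate and fibroblast, hepatocyte, cholangiocyte and sinusoidal markers. The low cholangiocyte sum came from Spp1 (123 against 167 to 188), while Krt7 and Krt19 were highest in WT replicate 4. Its skeletal muscle sum was the highest (30.5 against 16.9 to 18.0). LRP1 eKO replicate 2 was the farthest from its group median for 37.2% of genes, against 18.5% to 22.4%. It also had the lowest LRP1 eKO sums for macrophage markers (52.8 against 393 to 734), pan-endothelial markers (53.4 against 61.6 to 78.6) and sinusoidal markers (8.38 against 20.0 to 33.0). The same held for stellate and fibroblast (1770 against 1990 to 2240), cholangiocyte (233 against 498 to 696), hepatocyte (33.2 against 35.6 to 44.3) and erythroid markers. Its low cholangiocyte sum came mostly from Spp1 (91.6 against 351 to 547). Krt19 was also lowest in this library, but Krt7 was not (113 in a group range of 107 to 115). Its mesothelial sum was the highest (3220 against 2910 to 3020). Results that rest on these libraries are given with and without them.

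Of the 10 genes, 5 passed the threshold. Sema3c, Sema3d, Sema3e and Plxna1 rose and Sema3f fell in LRP1 eKO, and in each of these 5 genes the groups did not overlap. Among all genes tested, 41.2% were called in either direction (19.0% higher and 22.2% lower) and 42.6% did not overlap (20.0% higher and 22.5% lower), so that 5 of 10 is a share near the background. The median log2 fold change of the 10 genes was 0.22 and the median of its absolute value 0.28, against -0.0095 and 0.17 over all genes tested. In LRP1 eKO 9 of the 10 genes had the higher mean log2 signal, as 48.4% of all genes tested had. Without WT replicate 4 the median was 0.13 and 8 of the 10 genes were higher, and with LRP1 eKO replicate 2 left out as well the median was 0.19, again with 8 higher. All 10 genes had a signal of at least 1 in every library. With the study's further requirement of a 2-fold change, which 1.66% of the genes tested met (0.869% higher and 0.790% lower), limma called 0 of the 10 genes, and the largest log2 fold change was 0.78, that of Sema3d. By the ratio of mean signals Sema3d was at 191% of WT, closer to 2-fold but still below it. All 5 calls held in each of the 8 fits that left out 1 library.

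**Figure D2:**
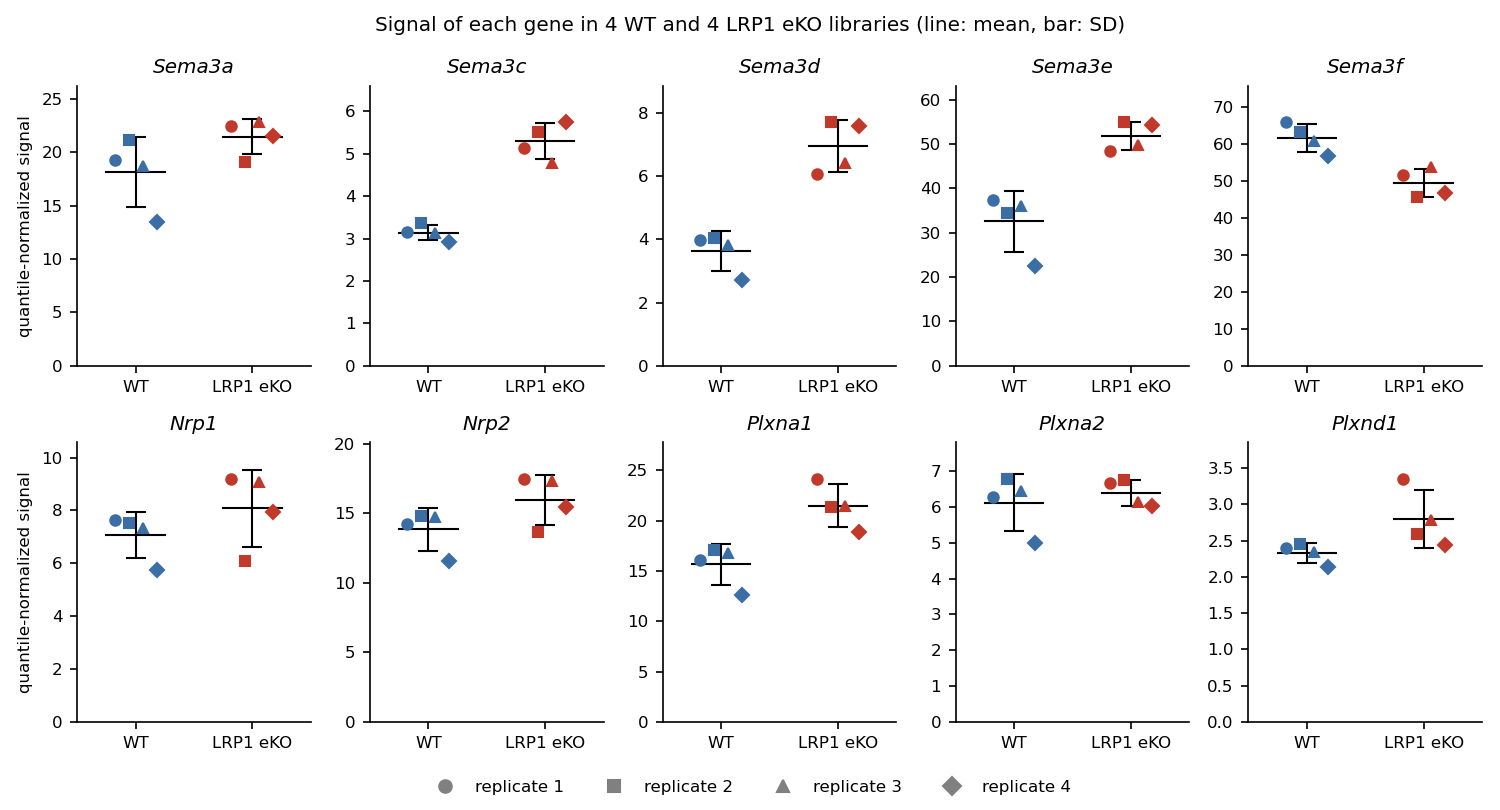
Quantile-normalized signal of the 10 genes in each library, 1 panel per gene with its own axis from 0, WT and LRP1 eKO libraries as points and the mean ± SD of each group. The LRP1 eKO points lie above all WT points for Sema3c, Sema3d, Sema3e and Plxna1 and below them for Sema3f, and WT replicate 4 is the lowest WT point in every panel.

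Among the ligands, Sema3d, Sema3e and Sema3c rose by the largest amounts of the system. Sema3d (chr5:12383385-12588948, plus strand, GRCm38, 18 exons in its longest coding transcript) encodes a secreted ligand that is known for guiding endothelial and neural crest cells. Its signal was 3.99, 4.03, 3.81 and 2.71 in WT and 6.07, 7.70, 6.43 and 7.60 in LRP1 eKO. Every LRP1 eKO library lay above every WT library, and the fourth WT library was well below the other 3. Its mean was 3.63 ± 0.62 in WT and 6.95 ± 0.82 in LRP1 eKO (SD over 4 libraries, as in all means that follow), for a log2 fold change of 0.78 ± 0.11 (SE, adjusted p = 5.09e-04 by limma), and 0.68 without WT replicate 4. Of the genes tested, 3.59% had a larger absolute fold change.

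Sema3e (chr5:14025276-14256689, plus strand, 17 exons) encodes the ligand that can act on Plexin-D1 alone and is known for repelling sprouting vessels. Its signal was 37.3, 34.5, 36.1 and 22.4 in WT and 48.5, 54.9, 49.8 and 54.3 in LRP1 eKO. The highest WT library was below the lowest LRP1 eKO library. The mean went from 32.6 ± 6.9 to 51.9 ± 3.2, a log2 fold change of 0.68 ± 0.14 (SE, adjusted p = 0.00398 by limma). Without WT replicate 4, the lowest WT library, the log2 fold change was 0.51 (adjusted p = 1.32e-04 by limma).

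Sema3c (chr5:17574281-17730268, plus strand, 18 exons) encodes a ligand of both neuropilins that is known from the outflow tract of the heart. It had the smallest standard error of the ligands that rose, with a signal of 3.15, 3.36, 3.13 and 2.92 in WT and of 5.14, 5.52, 4.79 and 5.74 in LRP1 eKO. The groups were separated by a gap wider than the range of either WT or LRP1 eKO libraries. The mean was 3.14 ± 0.18 in WT and 5.30 ± 0.42 in LRP1 eKO, and the log2 fold change of 0.60 ± 0.066 (SE) had the smallest adjusted p of the system (limma, 1.05e-04).

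Sema3a (chr5:13125414-13602565, plus strand, 17 exons), the ligand best known for collapsing axonal growth cones through Neuropilin-1, did not pass the test. Its signal was 19.3, 21.2, 18.7 and 13.4 in WT and 22.5, 19.1, 22.8 and 21.5 in LRP1 eKO. The groups overlapped through LRP1 eKO replicate 2, and WT replicate 4 was far below the rest. The log2 fold change was 0.24 with a 95% interval of -0.02 to 0.51 (adjusted p = 0.128 by limma). It was 0.11 without WT replicate 4 (adjusted p = 0.204 by limma), and with WT replicate 4 and LRP1 eKO replicate 2 both left out it was 0.17 and passed (adjusted p = 0.0316 by limma). That pair was chosen after seeing the data and holds the lowest Sema3a library of each group. Its removal narrows the spread, so no conclusion is drawn from this pass.

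Sema3f (chr9:107681500-107710475, minus strand, 18 exons), a ligand of Neuropilin-2 that is known to repel ECs and tumour cells, was the only gene of the 10 that fell. Its signal was 65.9, 63.3, 60.9 and 56.8 in WT and 51.6, 45.7, 53.8 and 46.8 in LRP1 eKO, so that every LRP1 eKO library lay below every WT library. The mean went from 61.7 ± 3.9 to 49.5 ± 3.8, which is 80.2% of the WT level, with a log2 fold change of -0.31 ± 0.065 (SE, adjusted p = 0.00427 by limma). WT replicate 4 was the lowest WT library here as well, and without it the log2 fold change was -0.35.

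The 4 ligand genes Sema3d, Sema3a, Sema3e and Sema3c lie on the same strand of chromosome 5, within 5.35 Mb (chr5:12383385-17730268, GRCm38), a stretch that was singled out after the values were seen. The table lists 18 other genes there. Of these, 8 were at 0 in all libraries and 2 entered the test. Hgf, which encodes hepatocyte growth factor, rose from 0.952 ± 0.181 to 1.71 ± 0.41 (log2 fold change 0.46, adjusted p = 0.0116 by limma). Cacna2d1, which encodes a calcium channel subunit, had means of 5.58 ± 1.32 and 7.20 ± 0.32 and did not pass (log2 fold change 0.34, adjusted p = 0.0674 by limma). Genes on the opposite strand overlap Sema3a, Sema3d, Sema3e, Nrp2 and Plxna1 in the GENCODE annotation. Whether reads were counted by strand is not stated, so the signal of these 5 genes may include reads of their overlapping partners. Annotated genes on the same strand overlap Sema3a, Sema3d, Sema3e, Nrp1, Nrp2 and Plxna2, and strand cannot separate their reads.

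The 250 bases before the RefSeq start (GRCm38.p6) are shown for neighbouring ligand genes of this stretch that rose (Sema3d, Sema3e) or did not pass (Sema3a), and none of these windows overlaps a GENCODE exon. Capitals mark a CCAAT box (CCAAT or ATTGG) in Sema3d (chr5:12382916-12383165, plus strand) and GC boxes (GGGCGG or CCGCCC) in Sema3e (chr5:14025026-14025275, plus strand). The window of Sema3a (chr5:13396534-13396783, plus strand) lies inside the gene as GENCODE bounds it.
Sema3d: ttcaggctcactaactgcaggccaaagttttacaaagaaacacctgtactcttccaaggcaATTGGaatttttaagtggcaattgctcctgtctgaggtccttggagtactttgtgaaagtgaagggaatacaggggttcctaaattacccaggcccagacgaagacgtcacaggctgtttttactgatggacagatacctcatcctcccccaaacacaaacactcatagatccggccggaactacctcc
Sema3e: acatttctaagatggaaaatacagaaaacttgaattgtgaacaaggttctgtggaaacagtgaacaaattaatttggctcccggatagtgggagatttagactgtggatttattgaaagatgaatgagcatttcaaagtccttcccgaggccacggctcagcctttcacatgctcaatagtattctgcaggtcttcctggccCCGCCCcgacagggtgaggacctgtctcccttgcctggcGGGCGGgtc
Sema3a: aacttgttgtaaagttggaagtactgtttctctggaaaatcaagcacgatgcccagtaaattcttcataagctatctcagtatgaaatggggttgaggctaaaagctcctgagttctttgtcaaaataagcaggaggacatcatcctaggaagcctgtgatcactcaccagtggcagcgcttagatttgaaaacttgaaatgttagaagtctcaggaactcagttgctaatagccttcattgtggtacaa
The Sema3d window is 46.8% G + C and has 4 CpG dinucleotides, that of Sema3e 48.0% and 7, and that of Sema3a 40.8% and 2, beside a median of 52.4% and 6 over 32851 mouse promoters. The windows of Sema3c and Nrp2, which overlap GENCODE exons, had 78.4% and 72.4% G + C, 39 and 32 CpG dinucleotides, and 3 and 5 GC boxes. A GC box on either strand was found in 6 of the 8 genes with a RefSeq entry and in 32.7% of all promoters, and a CCAAT box in 1 of 8 and 33.8%. The TATA box TATAAA was found in 0 of 8 and 12.4%, and GTAAACA, the letters of the FoxO motif, in 0 of 8 and 3.17%. The sequences of Plxna1 and Sema3f were not used here. A match is a description of the letters and not a site.

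The neuropilins, the binding receptors of the system, did not pass the test when all 8 libraries had equal weight. Nrp1 (chr8:128358604-128503363, plus strand, 17 exons), which binds Sema3a and serves as a co-receptor for VEGF-A, had a signal of 7.65, 7.51, 7.32 and 5.76 in WT and of 9.20, 6.09, 9.09 and 7.93 in LRP1 eKO. LRP1 eKO replicate 2 lay among the WT libraries and the other 3 lay above them. The log2 fold change was 0.16 with a 95% interval of -0.11 to 0.44 (adjusted p = 0.310 by limma, exact two-sided permutation p = 0.29). Nrp2 (chr1:62703285-62818695, plus strand, 16 exons), which binds Sema3f and serves as a co-receptor for VEGF-C in lymphatic vessels, had a signal of 14.2, 14.8, 14.8 and 11.6 in WT and of 17.5, 13.6, 17.3 and 15.4 in LRP1 eKO. The same 2 libraries were lowest in their groups. Its log2 fold change was 0.19 with a 95% interval of -0.02 to 0.41 (adjusted p = 0.134 by limma, exact two-sided permutation p = 0.17).

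Both neuropilin results turned on how these libraries entered the fit. With all 8 libraries and limma's array weights, which give libraries that vary more a lower weight, Nrp2 passed (log2 fold change 0.17, adjusted p = 0.0481 by limma). Without LRP1 eKO replicate 2, Nrp1 had a log2 fold change of 0.28 (adjusted p = 0.0491 by limma) and Nrp2 of 0.26 (adjusted p = 0.0468 by limma). Without WT replicate 4 the values were 0.08 and 0.11 (adjusted p = 0.607 and 0.281 by limma). With both libraries left out they were 0.19 and 0.18 and both passed (adjusted p = 0.0335 and 0.0257 by limma). That pair was chosen after seeing the data. It holds the lowest library of each group for both genes, so its removal narrows the spread, and no conclusion is drawn from these passes. LRP1 eKO replicate 2 was also the library with the lowest macrophage, pan-endothelial, sinusoidal, stellate and fibroblast, cholangiocyte (mostly through Spp1), hepatocyte and erythroid marker sums of its group. It had the highest mesothelial sum. The part of these in the neuropilin signal was not tested.

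Of the plexins, Plxna1 rose. Plxna1 (chr6:89316314-89362620, minus strand, 32 exons), a signalling receptor that pairs with neuropilins, had a signal of 16.1, 17.1, 16.8 and 12.7 in WT and of 24.2, 21.4, 21.5 and 18.9 in LRP1 eKO. The groups did not overlap, although WT replicate 4 was again well below its group. The mean rose from 15.7 ± 2.1 to 21.5 ± 2.2, a log2 fold change of 0.44 ± 0.10 (SE, adjusted p = 0.00698 by limma), and 0.34 without WT replicate 4 (adjusted p = 0.00560 by limma).

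Plxna2 (chr1:194618218-194816869, plus strand, 32 exons), a receptor of the same class, gave the smallest difference of the 10 genes. Its signal was 6.27, 6.79, 6.45 and 4.99 in WT and 6.67, 6.75, 6.13 and 6.04 in LRP1 eKO, and the groups overlapped. The log2 fold change was 0.06 with a 95% interval of -0.13 to 0.25 (adjusted p = 0.595 by limma), and -0.02 without WT replicate 4. Plxnd1 (chr6:115954811-115995005, minus strand, 36 exons), the receptor of Sema3e in vessels, had a signal of 2.40, 2.45, 2.35 and 2.13 in WT and of 3.35, 2.59, 2.78 and 2.44 in LRP1 eKO. The lowest LRP1 eKO library lay at the top of the WT range and the other 3 lay above it. Its log2 fold change of 0.18 (95% interval 0.002 to 0.36) did not pass the correction (limma unadjusted p = 0.0476, adjusted p = 0.0951). Without LRP1 eKO replicate 1, the highest library, it was 0.11 (adjusted p = 0.230 by limma).

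**Figure D3:**
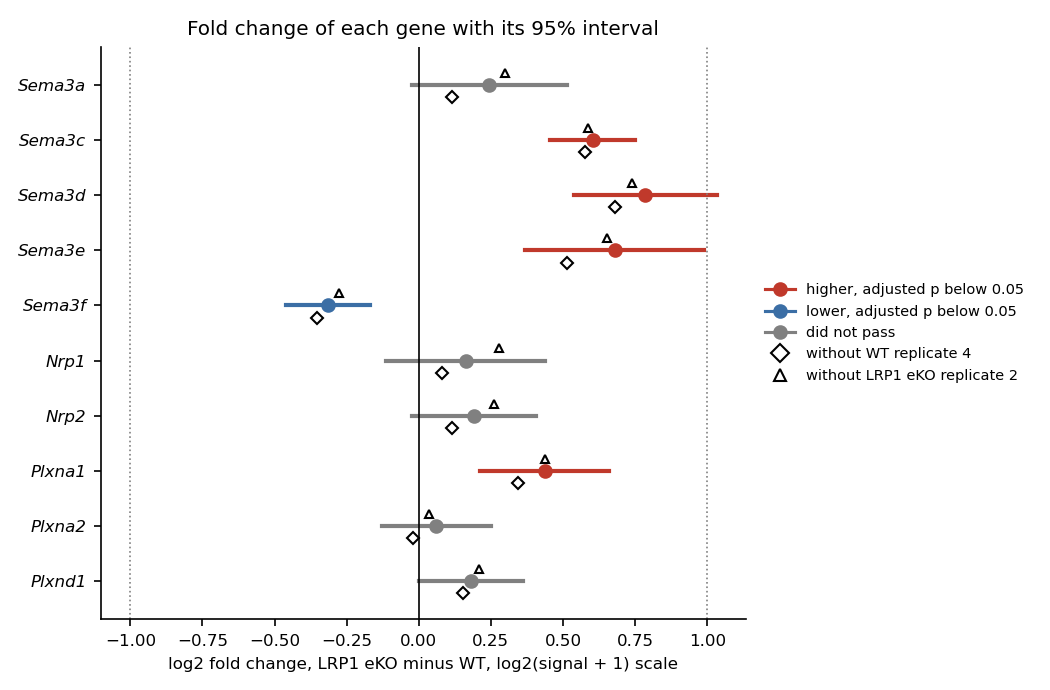
Log2 fold change (LRP1 eKO minus WT, log2(signal + 1) scale) of the 10 genes with 95% intervals, grouped as ligands, neuropilins and plexins. The intervals of Sema3c, Sema3d, Sema3e and Plxna1 lie above 0 and that of Sema3f below 0, and those of Nrp1, Nrp2, Sema3a and Plxna2 include 0. That of Plxnd1, which was not called, lies just above 0 (0.002 to 0.36). Open diamonds give the fits without WT replicate 4 and open triangles those without LRP1 eKO replicate 2.

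**Figure D4:**
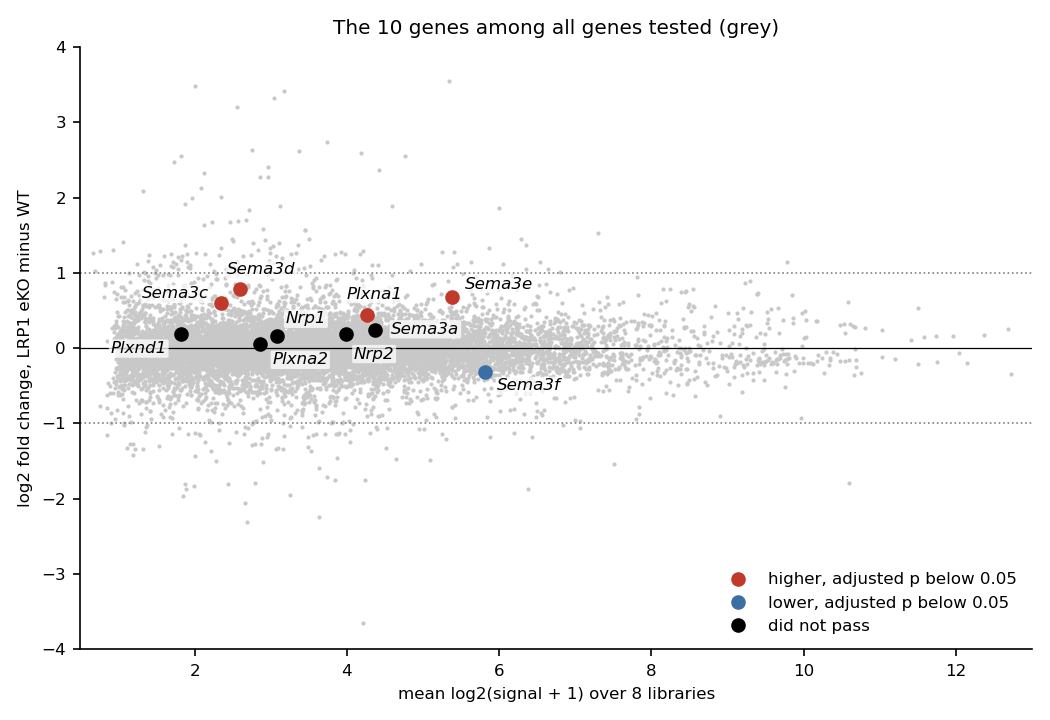
Log2 fold change against mean log2(signal + 1) over the 8 libraries for all 11391 genes tested (grey) and the 10 genes (coloured by call). All 10 genes lie between the dotted lines that mark a 2-fold change, Sema3d at 0.78 nearest to the upper one.

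The rest of the pathway was described with a list of 78 genes, of which 64 were tested. Of these 64, 26 were higher, 7 were lower and 31 did not pass, so that 51.6% were called beside the 41.2% of all genes tested. The median log2 fold change was 0.11, against -0.0095 for all genes. With the 2-fold requirement on the log2(signal + 1) scale limma called 0 of them, and the largest absolute log2 fold change was 0.92. By the ratio of mean signals, Dpysl5 (LRP1 eKO at 49.1% of WT) and Pgf (201%) were past 2-fold. Without WT replicate 4 the median was 0.068 and the number of lower genes was 12, and without WT replicate 1 that number was 4. Over all genes tested, 2604 and 2254 were lower in these fits, against 2526 with all libraries. Pgf passed the filter through LRP1 eKO alone, and without it 25 of 63 were higher.

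Of the remaining class 3 ligands, Sema3b rose and Sema3g was below the filter. Sema3b, which encodes a ligand known for its loss in tumours, lies 72.3 kb from Sema3f on the same strand (chr9:107597674-107609229, GRCm38). Its signal was 2.92, 2.69, 2.66 and 3.17 in WT and 4.98, 5.01, 4.49 and 4.35 in LRP1 eKO, with no overlap. Here WT replicate 4 was the highest WT library and not the lowest. The log2 fold change was 0.56 ± 0.068 (SE, adjusted p = 2.00e-04 by limma), the opposite direction to that of Sema3f, which fell. Sema3g had means of 0.0586 ± 0.0236 and 0.0942 ± 0.0310.

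Of the other ligands that bind neuropilins, 4 of 6 were higher, 0 were lower and the median log2 fold change was 0.24, beside 19.0% higher and 22.2% lower over all genes tested, with Pgf left out of these counts. Vegfa, the main growth factor of vessels and a ligand of Neuropilin-1, rose from 40.4 ± 3.9 to 70.1 ± 4.4 (log2 fold change 0.78, adjusted p = 3.50e-05 by limma). Pgf, a placental growth factor of the same family, had means of 0.905 ± 0.048 and 1.82 ± 0.27. All 4 of its LRP1 eKO libraries and 0 of its WT libraries reached the minimum signal, so that no test is given for it. Among the receptor partners, 3 of 6 tested genes were higher and 0 lower. Flt1, a VEGF receptor that acts as a decoy, rose from 10.4 ± 1.1 to 16.3 ± 1.1 (log2 fold change 0.60, adjusted p = 2.81e-04 by limma). Flt4, the VEGF-C receptor of lymphatic vessels, rose from 1.65 ± 0.07 to 2.68 ± 0.48 (log2 fold change 0.47, adjusted p = 0.00323 by limma).

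Of 6 tested semaphorins of other classes 1 was lower (16.7%) and 0 were higher, beside 22.2% lower and 19.0% higher over all genes tested, and the median log2 fold change was -0.07. Sema4c, a membrane-bound ligand of B plexins, fell from 8.40 ± 0.68 to 6.97 ± 0.46 (log2 fold change -0.24, adjusted p = 0.0203 by limma), and Sema4a had means of 4.34 and 5.20 without passing (adjusted p = 0.0940 by limma). Of 4 tested plexins outside the 10 genes 2 were lower and 0 higher, and the median log2 fold change was -0.22. Plxnb1, a receptor of class 4 semaphorins, fell from 4.56 ± 0.31 to 3.67 ± 0.17 (log2 fold change -0.25, adjusted p = 0.00922 by limma). Plxna4 fell from 5.32 ± 0.94 to 4.10 ± 0.34 (log2 fold change -0.30, adjusted p = 0.0463 by limma), with groups that overlapped.

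The proteases that cut semaphorins and neuropilins, 7 genes, gave 0 calls in limma, also at an unadjusted p below 0.05, with a median log2 fold change of 0.08. Adam17 (log2 fold change -0.12, adjusted p = 0.114 by limma) and Adam10 (0.20, adjusted p = 0.203 by limma), a pair of sheddases, had the smallest p-values. Of the intracellular signalling genes, 33 rows were tested, with 17 higher, 4 lower and a median log2 fold change of 0.12. Over all genes tested, 19.0% were higher and 22.2% lower. Fyn, a kinase that phosphorylates plexins, rose from 10.2 ± 0.6 to 14.0 ± 0.1 (log2 fold change 0.42, adjusted p = 1.99e-04 by limma). Dpysl5, a member of the collapsin response mediator family that carries Sema3a signals to the cytoskeleton, fell from 12.3 ± 0.5 to 6.02 ± 0.48 (log2 fold change -0.92 ± 0.063 SE, adjusted p = 5.11e-06 by limma), the largest absolute change of the pathway list.

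**Figure D5:**
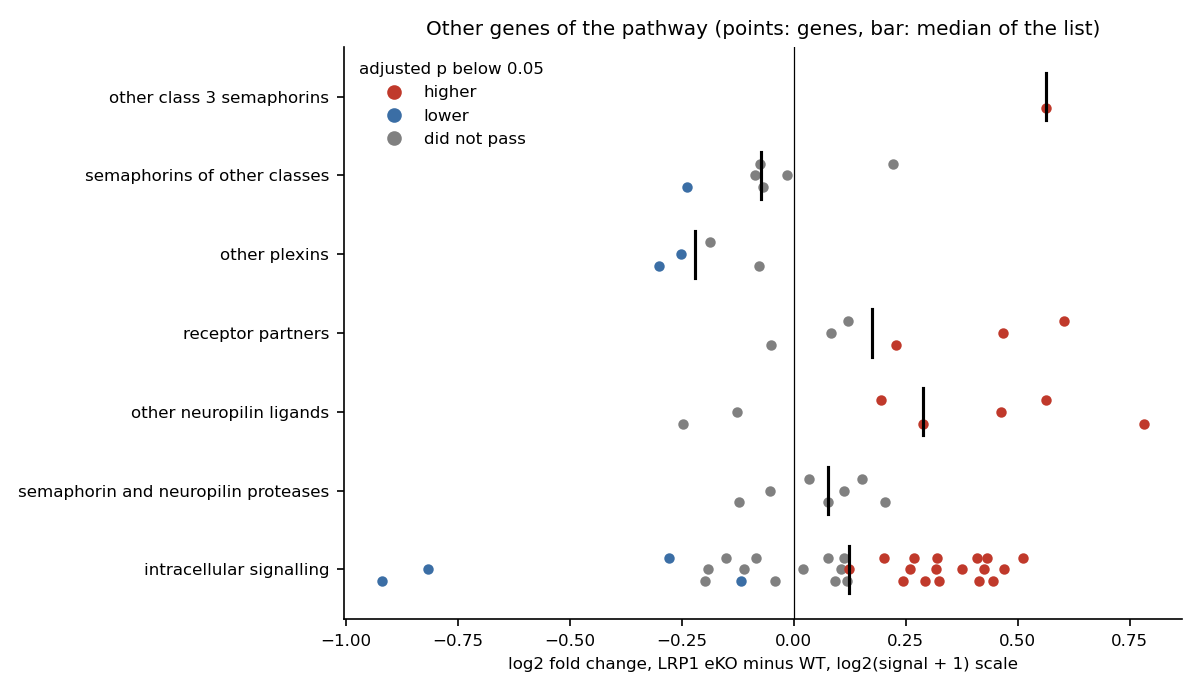
Log2 fold change (LRP1 eKO minus WT, log2(signal + 1) scale) of each tested gene of the pathway outside the 10 genes, by list, with the list's median as a bar and colours for higher, lower and not called. The other neuropilin ligands have 5 higher genes, Pgf among them, and 0 lower, the other plexins 0 higher and 2 lower, and the proteases 0 of either.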

How the data were processed

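RNA-seq libraries labelled as liver microvascular endothelial cells, 4 WT and 4 LRP1 eKO, were grouped by their labels. The authors deposited a quantile-normalized signal for 22520 protein-coding genes. The submitters' processing notes name mm10, TopHat2 and Cufflinks, whereas the methods describe trimming with trimGalore, mapping with STAR, counting with featureCounts and testing with edgeR, and do not describe this table. The unit before quantile normalization is not stated, and a shift common to all genes is removed by it. Signal totals were 484445 to 485947 per library, 6186 to 6621 genes were at 0, and the depth is unknown, so precision was judged from the spread between libraries.

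From the deposited signal, log2(signal + 1) was fitted with limma 3.58.1 in R 4.3.3 (genotype as the only term, mean-variance trend) over the 11391 genes whose signal reached 1 in 4 or more of the 8 libraries. The exact two-sided permutation test cannot go below p = 0.029 with 4 against 4. Of the pathway lists, the named genes are the 2 with the smallest adjusted p of each list, Sema3b and Sema3g. Members and lists were chosen with earlier results of these data known. Mical3 had 2 rows. Of the gene identifiers, 21740 of 22520 were in GENCODE M21 (GRCm38). Scripts were tested on simulated data. Alternatives covered pseudocount, filter, moderation, array weights, scaling, replicate block, threshold and left-out libraries.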

Additional observations from a re-analysis of the deposited data

Results flagged for a closer look

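The Sema3d signal of WT replicate 4, 2.71 against 3.81 to 4.03 in the other WT libraries, stood apart from its group, with a gap to the nearest library of 0.83 of the group's range, just past the limit Dixon's test sets for 4 libraries. Of 22 groups examined 1 was flagged, and 1.1 are expected by chance. Without this library Sema3d rose by 0.68 on the log2 scale (adjusted p = 3.03e-04 by limma).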

How the results depend on the processing

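The called genes Sema3c, Sema3d, Sema3e, Sema3f and Plxna1 kept their direction and stayed past the threshold in every alternative that tested them, except that 0 of the 5 met the 2-fold requirement, and Lrp1 kept a log2 fold change of -3.93 to -2.91. Sema3c and Plxnd1 were not tested under a minimum mean signal of 5. For Sema3c and Sema3d, the log2 ratios of arithmetic means were 0.75 and 0.94. The log2 fold changes of these genes with a pseudocount of 0.1 were 0.73 and 0.93. With a pseudocount of 5 the log2 fold changes of Sema3c and Sema3d were 0.34 and 0.47, against 0.60 and 0.78, as a larger pseudocount shrinks low signals. Without LRP1 eKO replicate 1 or 3 that of Nrp1 was 0.10 or 0.11. Plxna2 changed sign with array weights (-0.038), without WT replicate 4 (-0.021) and without that library and LRP1 eKO replicate 2 together (-0.044), an alternative chosen after seeing the data, and it ranged up to 0.11 with single libraries left out. Of the 10 genes, 4 were higher and 1 lower. With the 2-fold requirement the counts were 0 and 0, with both libraries left out 7 and 1, and when single libraries were left out the higher count ranged from 4 to 6 and the lower one stayed at 1. Of the pathway genes, 26 were higher and 7 lower. The higher count was 0 with the 2-fold requirement, taken on the log2(signal + 1) scale as throughout, and 21 to 26 with single libraries left out. The lower count was 0 with the 2-fold requirement, 4 at an adjusted p below 0.01, 13 with array weights, 12 with both libraries left out and 4 (without WT replicate 1) to 12 (without WT replicate 4) with single libraries left out. Over all 11391 genes tested, 2164 were higher and 2526 lower in the main fit. The numbers were 2334 and 2708 with both libraries left out, and 2644 and 3076 with array weights. With single libraries left out they were 1715 to 2206 higher and 2025 to 2604 lower. The calls of the 10 genes and the pathway genes thus moved along with those of all genes, and the cause of these differences was not tested. The labels do not say whether same-numbered libraries are pairs. Their correlations, of deviations from group means over 4 libraries, were -0.0856, -0.13, 0.178 and 0.0378, which cannot settle this. With the replicate block the counts were 4 and 1 of the 10 genes and 24 and 6 of the pathway genes, beside 1975 and 2210 of all genes tested. Sema3c kept a log2 fold change of 0.60 there (adjusted p = 0.00122 by limma). The unknown depth leaves counting error without an estimate.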

Other observations

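The genes outside the family whose pattern over the 8 libraries was most like that of a member were listed for Sema3c and Sema3d, by the root mean square difference of the centred log2(signal + 1) values among 11317 genes. For Sema3c these were Sdc2, which encodes a heparan sulfate proteoglycan of the cell surface, at 0.057 (log2 fold change 0.59), Klf6, a zinc-finger transcription factor, at 0.060 (0.60) and Aif1l at 0.061 (0.69). For Sema3d these were Klhl13 at 0.072 (0.68), Gm5431 at 0.073 (0.67) and Arih1, a ubiquitin ligase, at 0.081 (0.77). The likeness uses the same 8 libraries as the fold changes and includes the difference between the groups.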
